A study of Mus musculus with 24 samples.

Results

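Mast cells and basophils are marked here by 7 genes, Cpa3, Fcer1a, Ms4a2, Mcpt8, Kit, Gata2 and Hdc, which were taken by gene symbol from the 55421 genes counted in bone marrow-derived macrophages (BMDMs). All 7 were found in the count table and all 7 passed the filter on low counts in the fit of all 24 libraries. BMDMs of C57BL/6J wildtype mice and of AhR-deficient mice (B6.129-Ahr tm1Bra/J, a line that lacks the aryl hydrocarbon receptor in every cell of the body) were either left unstimulated or stimulated with LPS at 97 EU/ml on day 6 for 24 h. Each of the 4 groups had 6 libraries. All groups were grown from bone marrow in 10 ng/ml GM-CSF and 2 ng/ml TGF-β, conditions that drive alveolar-like macrophages, and the treatment protocol ends with 5 µM of a Ca2+ ionophore for 10 min. Across the study, young adult mice of both sexes were used, matched for age and sex. The sample titles give neither sex nor age for a library. Whether a culture with and a culture without LPS shared an animal is not given in the labels.

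Mast cells and basophils are granulocytes of allergic responses. They carry the high-affinity IgE receptor FcεRI, store histamine in granules and release it when bound IgE is crosslinked. Fcer1a encodes the IgE-binding α chain of this receptor and Ms4a2 its signal-amplifying β chain, while the γ chain, Fcer1g, is shared with other Fc receptors and is made by macrophages too. Kit is the receptor for stem cell factor, on which mast cells and early progenitors depend. Gata2 is a transcription factor of haematopoietic stem cells, mast cells and basophils. Cpa3 is a carboxypeptidase of mast cell granules that basophils also make, Mcpt8 is a protease of basophil granules, and Hdc makes histamine from histidine. Hdc is also known to be induced in activated macrophages, and Kit and Gata2 also mark progenitors.

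The promoter sequences of the markers are shown because the regulator that is missing in these mice, AhR, binds DNA at the core letters GCGTG, and the marker with the largest genotype difference, Gata2, encodes a factor that binds GATA motifs. RefSeq windows of 300 bases, from 250 bases before to 50 bases after an annotated start on GRCm38.p6, matched all 7 genes. Both motifs were searched on both strands, and matches are in capitals. A match on the other strand reads CACGC for the AhR core and TTATC for the GATA core. The sequences run 5′ to 3′ in the direction of the gene.
Gata2 upstream start, chr6:88193641-88193940, + strand: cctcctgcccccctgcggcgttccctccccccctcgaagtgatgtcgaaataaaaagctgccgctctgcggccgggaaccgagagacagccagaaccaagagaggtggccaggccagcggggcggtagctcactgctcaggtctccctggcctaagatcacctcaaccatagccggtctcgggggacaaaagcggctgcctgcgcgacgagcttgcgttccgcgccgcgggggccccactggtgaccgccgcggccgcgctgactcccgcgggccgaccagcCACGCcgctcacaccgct
Gata2 downstream start, chr6:88198414-88198713, + strand: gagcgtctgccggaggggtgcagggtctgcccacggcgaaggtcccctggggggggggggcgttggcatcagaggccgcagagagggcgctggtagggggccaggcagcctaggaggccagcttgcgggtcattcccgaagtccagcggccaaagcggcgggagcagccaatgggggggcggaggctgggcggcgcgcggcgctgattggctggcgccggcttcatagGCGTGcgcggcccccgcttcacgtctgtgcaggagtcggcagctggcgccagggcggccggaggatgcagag
Kit, chr5:75574737-75575036, + strand: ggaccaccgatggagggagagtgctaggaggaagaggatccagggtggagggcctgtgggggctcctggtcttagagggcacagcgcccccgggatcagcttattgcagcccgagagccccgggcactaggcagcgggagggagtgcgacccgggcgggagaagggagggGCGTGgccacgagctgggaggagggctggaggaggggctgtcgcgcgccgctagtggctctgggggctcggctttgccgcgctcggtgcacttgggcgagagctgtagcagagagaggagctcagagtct
Cpa3, chr3:20242132-20242431, - strand: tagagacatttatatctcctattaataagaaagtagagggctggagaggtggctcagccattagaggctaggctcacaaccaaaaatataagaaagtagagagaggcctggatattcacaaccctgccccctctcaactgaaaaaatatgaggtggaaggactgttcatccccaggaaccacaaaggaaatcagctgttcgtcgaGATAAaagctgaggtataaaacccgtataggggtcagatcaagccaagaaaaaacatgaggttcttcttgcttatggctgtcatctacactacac
Fcer1a, chr1:173227180-173227479, - strand: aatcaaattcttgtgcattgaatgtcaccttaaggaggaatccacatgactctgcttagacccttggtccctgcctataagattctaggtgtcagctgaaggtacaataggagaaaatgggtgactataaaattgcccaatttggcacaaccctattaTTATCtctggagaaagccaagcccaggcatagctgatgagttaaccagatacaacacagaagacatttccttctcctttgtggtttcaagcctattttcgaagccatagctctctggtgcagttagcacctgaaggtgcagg
Ms4a2, chr19:11623670-11623969, - strand: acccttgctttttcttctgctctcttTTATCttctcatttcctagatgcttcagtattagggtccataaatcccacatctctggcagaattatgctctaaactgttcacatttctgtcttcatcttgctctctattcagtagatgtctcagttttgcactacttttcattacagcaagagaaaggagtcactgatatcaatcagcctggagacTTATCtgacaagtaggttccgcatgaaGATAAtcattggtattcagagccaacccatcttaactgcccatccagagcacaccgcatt
The AhR core was found in Kit at position −80 and in both Gata2 windows, at positions 32 and −22, where position 0 is the annotated start. A second Kit window, which starts 4 bases further on and is not printed, holds the same match at position −84. The GATA core was found in Cpa3 at position −45, in Fcer1a at position −92 and in Ms4a2 at positions −224, −37 and −10. Neither was found in Mcpt8 or Hdc. Of all 32851 promoter windows, 32.4% held the AhR core and 25.4% the GATA core, so that such matches are common. Marker windows with the AhR core had 69.0% to 73.7% GC and those with the GATA core 41.0% to 43.7%. The median over all windows was 52.7%, and the part of base content in these matches was not tested. The E-box CANNTG was present in a window of 6 of the 7 genes, all but Ms4a2, and in 72.3% of all windows. These are letter matches in short windows and no measure of binding.

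The levels were low next to those of macrophage genes. In the unstimulated wildtype, the 7 genes together took between 8.26 and 28.1 CPM of a library (counts per 1000000 counts, scaled by edgeR's TMM factors), against 20900 to 37960 CPM for 14 macrophage genes such as Lyz2 and Csf1r. Per kilobase of exon, Cpa3 was the most abundant of the 7 without stimulation, with 3.86 ± 2.55 RPKM in wildtype (SD, n = 6) and 0.934 ± 0.433 RPKM in AhR-deficient BMDMs (SD, n = 6). In unstimulated wildtype it was followed by Mcpt8, Gata2, Hdc, Kit, Ms4a2 and Fcer1a, and no neighbours in this order below Cpa3 differed by more than their SDs. After LPS, Hdc led with 64.4 ± 10.8 RPKM in wildtype (SD, n = 6) and 101 ± 17.3 RPKM in AhR-deficient BMDMs (SD, n = 6). Kit came next after Hdc and Cpa3 once LPS was given, in both genotypes. Gata2 was the least abundant of the 7 in AhR-deficient BMDMs in both states, and its distance to the next gene there was larger than both SDs.

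Libraries held between 45106052 and 76992663 counts, which gave as few as 39 counts over the 6 libraries of a group for Fcer1a and as many as 193721 for Hdc. The library numbers 17 to 40 form 3 runs of 8, and every run holds 2 libraries of each group. No label calls these runs batches. The third run stood apart. In unstimulated wildtype, both of its libraries lay below the other 4 for Cpa3, Mcpt8 and Hdc, which was so for 15.3% of all genes tested. In LPS-stimulated wildtype it was so for 5 of the 7 markers, Cpa3, Mcpt8, Kit, Gata2 and Hdc, against 31.7% of all genes. In the AhR-deficient groups it was so for none of the 7 without stimulation (3.01% of all genes) and for Mcpt8 and Gata2 after LPS (26.9%). Genotype results are therefore given within runs and without libraries 33 to 40 as well. The targeted gene, Ahr, had 28.3 ± 12.2 CPM in unstimulated wildtype and 7.42 ± 2.39 CPM in unstimulated AhR-deficient BMDMs (SD, n = 6 each). After LPS it had 16.8 ± 7.63 CPM in wildtype and 43.1 ± 16.2 CPM in AhR-deficient BMDMs (SD, n = 6 each). Counts over the whole gene include exons outside the disrupted part and do not check the deletion. The AhR target Ahrr had log2 fold changes between genotypes of −6.34 without and −8.19 with LPS, and of 4 tested AhR targets 2 were lower in both states. Tiparp, another of the 4, had −0.52 without LPS (adjusted p = 0.088) and 0.96 after LPS (adjusted p = 0.00043), below the 2-fold change a call needs, with a called interaction of 1.48 (adjusted p = 0.00078).

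Without stimulation, all 7 markers had a lower fitted level in AhR-deficient than in wildtype BMDMs, and 5 of them, Gata2, Kit, Cpa3, Mcpt8 and Hdc, passed as differentially expressed genes (DEGs, with an edgeR adjusted p up to 0.05 over all genes tested and a log2 fold change of 1 or more in either direction). Of all 16593 genes tested, 3.57% were called lower. The log2 fold changes of the 7 had a median of −2.19, beside −0.01 over all genes. In 3 of the 7, Gata2, Kit and Hdc, the libraries of the genotypes did not overlap, which was so in that direction for 3.44% of all genes. In bulk RNA, fewer cells of a type and less RNA per cell cannot be told apart.

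**Figure D1:**
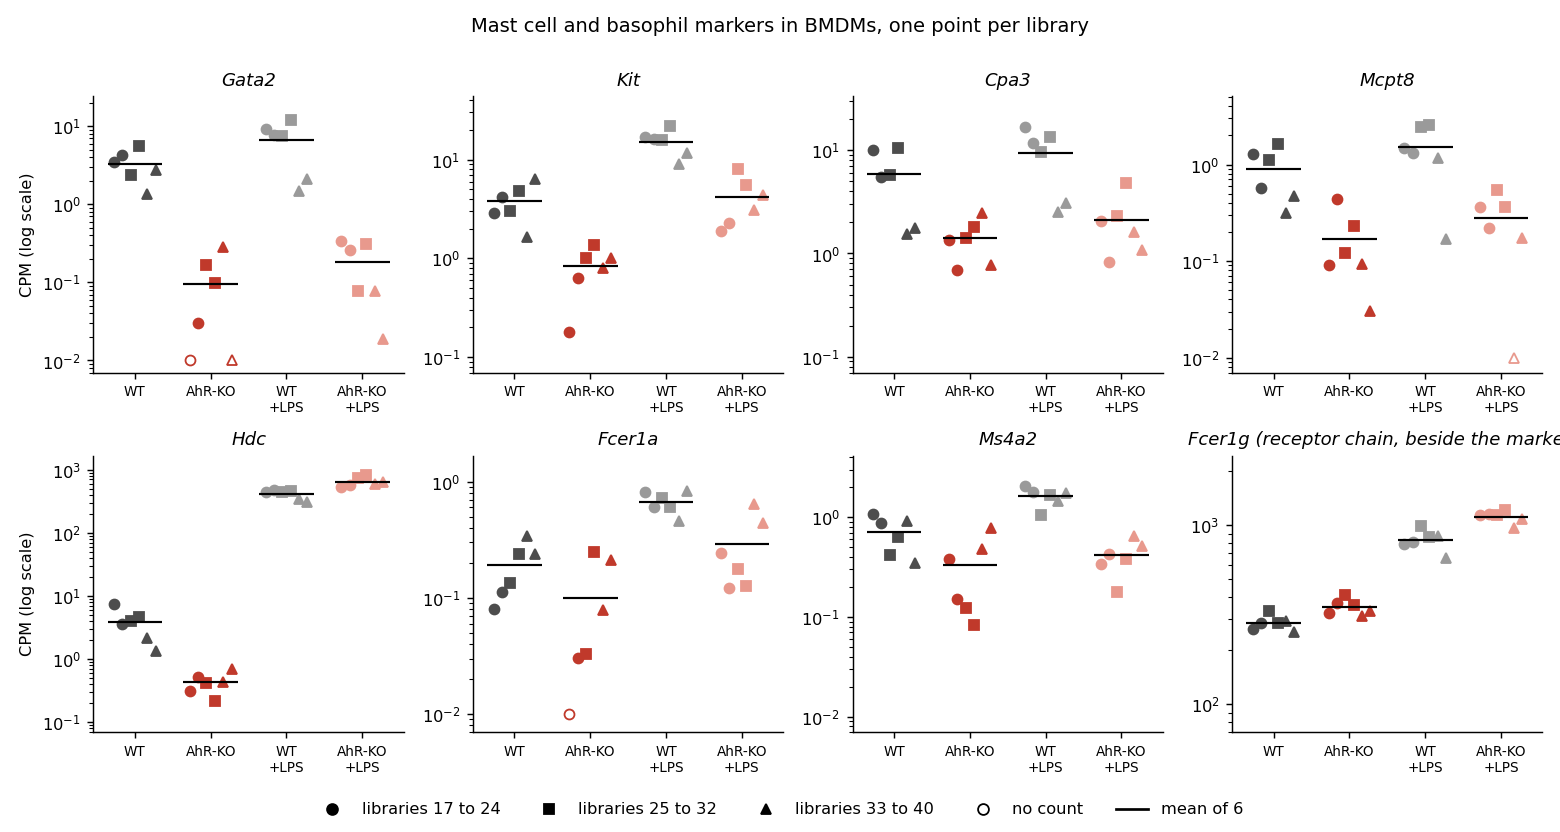
CPM of each marker (log axis) in the 24 libraries, with the receptor chain Fcer1g beside them. Marker shapes give the run of library numbers, open symbols at the foot of a panel stand for libraries without a count, and bars are means of 6 libraries. Gata2 in AhR-deficient BMDMs lies below every wildtype library, Hdc rises to 312 CPM or more after LPS in both genotypes, and the triangles of libraries 33 to 40 are the lowest wildtype libraries for Cpa3.

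Gata2 (ENSMUSG00000015053, mm10 chr6:88193891-88207032) showed the largest genotype difference of the markers. In unstimulated wildtype its libraries ran from 1.36 through a median of 3.12 to 5.67 CPM, and in AhR-deficient BMDMs from 0 through 0.0648 to 0.281 CPM, with no count in 2 libraries. Every AhR-deficient library lay below every wildtype library, and 41 counts over 6 libraries stood against 1421. The log2 fold change was −5.04 (SE 0.79, adjusted p = 1.4e-04). Gata2 is required for the formation of mast cells and basophils and for the upkeep of haematopoietic stem cells.

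Kit (ENSMUSG00000005672, mm10 chr5:75574916-75656722), the stem cell factor receptor, had 1.66, 3.62 and 6.41 CPM as the lowest, median and highest library in unstimulated wildtype. In AhR-deficient BMDMs these values were 0.181, 0.906 and 1.37 CPM. The groups did not overlap, although the highest AhR-deficient library and the lowest wildtype library were close. The log2 fold change was −2.19 (SE 0.41, adjusted p = 0.0010), or 4.56-fold lower.

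Hdc (ENSMUSG00000027360, mm10 chr2:126593667-126619299), which encodes histidine decarboxylase, ran from 1.36 through 3.80 to 7.45 CPM in unstimulated wildtype and from 0.215 through 0.429 to 0.697 CPM in AhR-deficient BMDMs. No library of one genotype reached the other. Its log2 fold change of −3.13 (SE 0.32, adjusted p = 6.5e-07) had the smallest p of the 7 markers in this comparison.

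The granule proteases were lower too, with overlap between the genotypes. Cpa3 (ENSMUSG00000001865, mm10 chr3:20215620-20242181) had 1.54, 5.60 and 10.5 CPM as lowest, median and highest wildtype library and 0.696, 1.39 and 2.45 CPM in AhR-deficient BMDMs. The overlap came from wildtype libraries 33 and 34, which had 1.54 and 1.78 CPM while the other 4 had at least 5.47 CPM. The log2 fold change was −2.04 (SE 0.55, adjusted p = 0.022), and over 9 other settings the adjusted p lay between 0.0016 and 0.068, missing the threshold with limma-voom. It also missed it, at up to 0.065, when wildtype library 17 or 26 or AhR-deficient library 20 or 36 was left out. Mcpt8 (ENSMUSG00000022157, mm10 chr14:56082166-56085273) had 0.318, 0.845 and 1.64 CPM in wildtype and 0.0303, 0.108 and 0.439 CPM in AhR-deficient BMDMs, and all AhR-deficient libraries but number 20 were under the wildtype range. The fitted difference was −2.40 on the log2 scale (SE 0.68, adjusted p = 0.033). The call was lost with limma-voom, with no filter on low counts, and in 8 of the 24 fits that left out 1 library, those without wildtype library 17, 25 or 26 or AhR-deficient library 19, 27, 28, 35 or 36. Over 8 other settings its adjusted p lay between 0.0025 and 0.053. Each of the 2 genes has a microRNA gene annotated within it on the same strand, Mir7007 in Cpa3 and Mir6949 in Mcpt8.

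Both FcεRI chains specific to mast cells and basophils were rare and did not pass. Fcer1a (ENSMUSG00000005339, mm10 chr1:173221284-173227214) had 73 counts over the 6 unstimulated wildtype and 39 over the 6 AhR-deficient libraries, with medians of 0.186 and 0.0557 CPM. Its libraries ran from 0.0809 to 0.340 CPM in wildtype and from 0 to 0.248 CPM in AhR-deficient BMDMs. The groups overlapped, though 4 of the 6 AhR-deficient libraries lay below the wildtype range. The log2 fold change was −0.89 (SE 0.60, adjusted p = 0.67). Ms4a2 (ENSMUSG00000024680, mm10 chr19:11615523-11623719) had 0.347, 0.759 and 1.09 CPM in wildtype and 0.0827, 0.268 and 0.772 CPM in AhR-deficient BMDMs. The fitted difference was −1.10 on the log2 scale (SE 0.44, adjusted p = 0.20). With the runs as a factor it was −1.28 (adjusted p = 0.039), and over 8 other settings the adjusted p lay between 0.013 and 0.41. It also passed without AhR-deficient library 36. The shared γ chain Fcer1g had 285 ± 27.4 CPM in wildtype and 350 ± 35.9 CPM in AhR-deficient BMDMs (SD, n = 6 each), a log2 fold change of 0.30 (SE 0.11, adjusted p = 0.14).

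After LPS, 5 of the 7 markers were again called lower in AhR-deficient BMDMs, where 6.19% of all genes were, but they were not the same 5, with Ms4a2 among them and Hdc not. The median log2 fold change of the 7 was −1.98, beside −0.05 over all genes. For Gata2, Kit and Ms4a2 the genotypes did not overlap, as for 4.53% of all genes in that direction. This comparison uses other libraries than the one without stimulation.

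Gata2 had 1.49, 7.55 and 12.1 CPM as lowest, median and highest library in LPS-stimulated wildtype and 0.0191, 0.171 and 0.343 CPM in AhR-deficient BMDMs. The log2 fold change was −5.18 (SE 0.79, adjusted p = 5.9e-05). Kit had 8.999, 15.8 and 21.8 CPM in wildtype and 1.90, 3.73 and 8.04 CPM in AhR-deficient BMDMs. Neither gene overlapped between genotypes, though for Kit the gap between the nearest libraries was smaller than either group's SD. For Kit the log2 fold change was −1.85 (SE 0.40, adjusted p = 0.0025). Ms4a2, the FcεRI β chain, had 1.06, 1.73 and 2.06 CPM in wildtype and 0.177, 0.402 and 0.645 CPM in AhR-deficient BMDMs. This difference of −1.98 on the log2 scale (SE 0.45, adjusted p = 0.0035) kept its call in all 24 fits that left out 1 library. For the α chain Fcer1a, 5 of 6 AhR-deficient libraries lay below the wildtype range of 0.456 to 0.832 CPM, with a log2 fold change of −1.21 (SE 0.58, adjusted p = 0.21).

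Cpa3 had 2.52, 10.7 and 16.7 CPM in LPS-stimulated wildtype and 0.829, 1.84 and 4.78 CPM in AhR-deficient BMDMs. Its highest AhR-deficient library, number 32, reached into the wildtype range, the other 5 did not. The log2 fold change was −2.17 (SE 0.55, adjusted p = 0.0086). Mcpt8 had 0.171, 1.40 and 2.54 CPM in wildtype and 0, 0.292 and 0.551 CPM in AhR-deficient BMDMs, with a log2 fold change of −2.43 (SE 0.68, adjusted p = 0.017). Its wildtype library 38 fell among the AhR-deficient ones while the next wildtype library had 1.18 CPM. Both calls held in all 24 fits that left out 1 library.

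Hdc went the other way after LPS. Wildtype libraries ran from 312 through 444 to 477 CPM and AhR-deficient libraries from 528 through 611 to 823 CPM. Every AhR-deficient library was above every wildtype library, as for 2.59% of all genes in that direction, yet the log2 fold change of 0.66 (SE 0.28) did not pass (adjusted p = 0.16, between 0.013 and 0.42 over 9 other settings). Scaled by library totals alone it was 0.42, a scaling under which the median gene itself moved to −0.26 in this comparison.

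**Figure D2:**
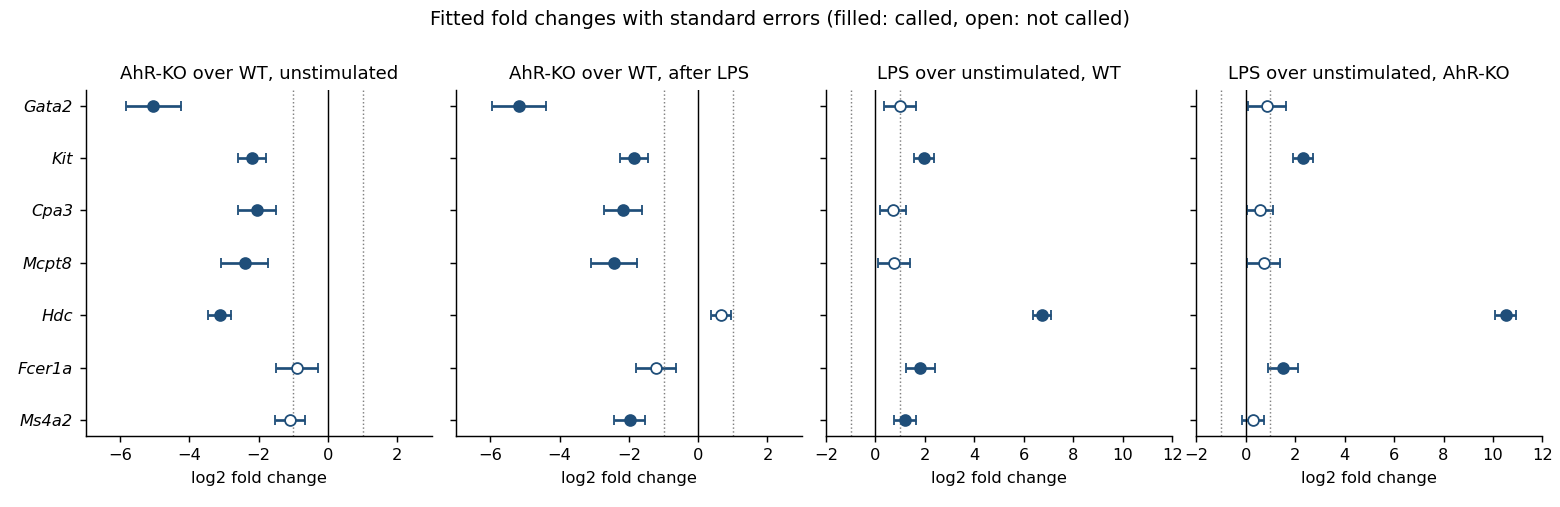
Fitted log2 fold changes with standard errors of the 7 markers in the 4 comparisons. Filled points are DEGs, open points are not, and dotted lines mark a log2 fold change of 1 in either direction. Gata2 sits near −5 in both genotype panels, and Hdc near 6.7 and 10.5 in the LPS panels.

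Within the runs of library numbers, the genotype difference was nearest to 0 in the third run for 5 of the 7 markers without stimulation and for 6 after LPS, all but Hdc. The values are differences of mean log2(CPM + 0.5) between 2 and 2 libraries, a scale that understates changes at low levels. Without stimulation, Cpa3 differed by −2.41 and −1.98 in the first and second run and by −0.16 in the third. For Gata2 the values were −3.10, −2.74 and −1.97, and for Hdc −2.63, −2.56 and −1.06. Gata2, Kit, Cpa3, Mcpt8, Hdc and Fcer1a were lower in AhR-deficient BMDMs in all 3 runs, and Ms4a2 in the first 2 only, with 0.04 in the third. After LPS, Cpa3 differed by −2.97, −1.63 and −0.84, and all markers but Hdc were lower in each run. When libraries 33 to 40 were left out, 6 markers were called lower without stimulation (3.33% of 16732 genes in that fit), with Ms4a2 added at −2.08 (adjusted p = 0.013), and 5 after LPS (5.67%). These libraries were chosen after their low wildtype values had been seen, a choice that by itself favours larger differences, so that these values lend no independent weight. In that fit Cpa3 was at −2.59 without stimulation (adjusted p = 0.0022) and Gata2 at −5.59 (adjusted p = 8.4e-05). The slope of CPM on gene length moved with the runs as well, with means of −0.03 in the first run, 0.15 in the second and −0.13 in the third. In the first run it lay between −0.064 and 0.055 but for library 19 at −0.29, in the second between 0.11 and 0.20, and in the third between −0.27 and −0.095 in 6 of 8 libraries. In LPS-stimulated wildtype it was 0.055 and 0.035 in the first run and −0.18 and −0.16 in the third. Its part in these differences was not tested.

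**Figure D3:**
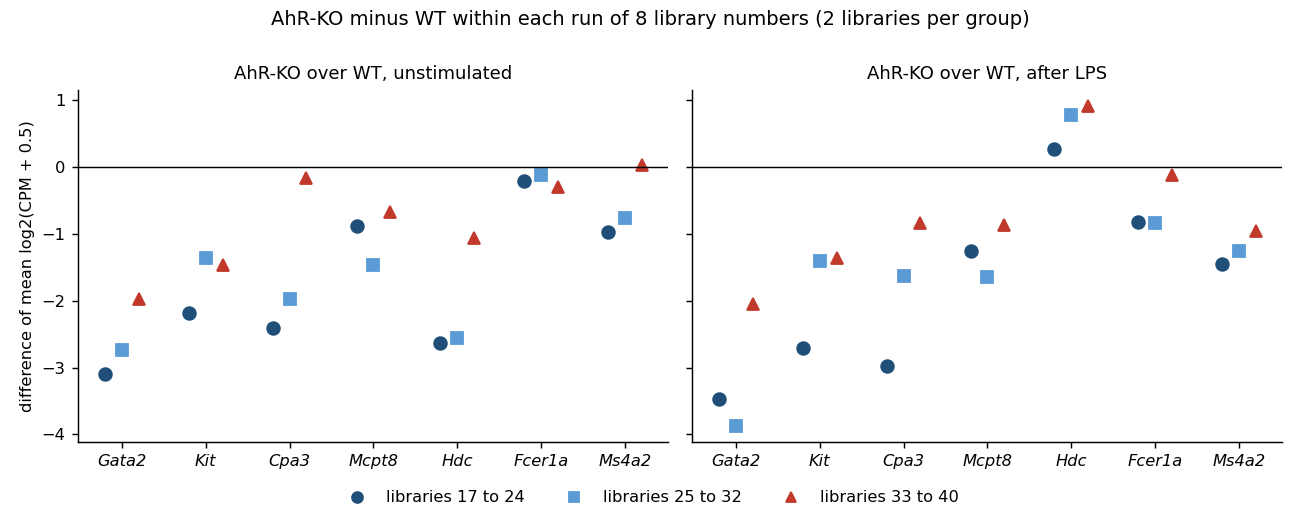
Genotype difference of each marker within each run of 8 library numbers, as AhR-deficient minus wildtype mean log2(CPM + 0.5), 2 libraries per group and run, without stimulation (left) and after LPS (right). Without stimulation the third run is nearest to 0 for Cpa3, at −0.16, and after LPS Hdc is above 0 in all 3 runs.

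LPS raised several of the markers. In wildtype BMDMs 4 of the 7, Hdc, Kit, Fcer1a and Ms4a2, were called higher after LPS, where 13.2% of all genes were, and none was called lower. The median of the 7 log2 fold changes was 1.19, beside 0.03 over all genes. In AhR-deficient BMDMs 3 of the 7, Hdc, Kit and Fcer1a, were called higher, where 15.1% of all genes were, with a median of 0.87 beside −0.03. Fcer1a and Gata2 did not pass the filter in a fit of the AhR-deficient libraries alone. Of the 5 markers tested in that fit, 2 were called higher (14.4% of 15141 genes). Libraries without and with LPS did not overlap for Hdc, Kit and Fcer1a in wildtype (11.4% of all genes) and for Hdc and Kit in AhR-deficient BMDMs (14.4%). The LPS comparisons share their libraries with the genotype comparisons.

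Hdc rose from 3.85 ± 2.13 to 411 ± 68.8 CPM in wildtype (SD, n = 6 each), a log2 fold change of 6.74 (SE 0.36, adjusted p = 1.5e-12) or 107-fold. In AhR-deficient BMDMs it rose from 0.436 ± 0.167 to 648 ± 110 CPM (SD, n = 6 each), a log2 fold change of 10.52 (SE 0.43, adjusted p = 8.4e-15) or 1470-fold. Histidine decarboxylase was thus among the strongly induced transcripts of both genotypes, and its level after LPS lay far above that of the other 6 markers. Kit rose from 3.83 ± 1.67 to 15.1 ± 4.45 CPM in wildtype (log2 fold change 1.98, SE 0.40, adjusted p = 3.7e-04) and from 0.837 ± 0.406 to 4.19 ± 2.31 CPM in AhR-deficient BMDMs (log2 fold change 2.32, SE 0.41, adjusted p = 6.3e-05). The libraries of both states were fully separated in each genotype.

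Both FcεRI chains were higher after LPS in wildtype. Fcer1a went from 0.191 ± 0.0981 to 0.672 ± 0.144 CPM (log2 fold change 1.82, SE 0.59, adjusted p = 0.016), and Ms4a2 from 0.714 ± 0.296 to 1.63 ± 0.345 CPM (log2 fold change 1.19, SE 0.43, adjusted p = 0.032). The Ms4a2 call was lost with total library size, with no filter and without libraries 33 to 40, as well as when wildtype library 21, 25, 26 or 34 was left out, and over 8 other settings its adjusted p lay between 0.0060 and 0.10. In AhR-deficient BMDMs the α chain had a log2 fold change of 1.50 (SE 0.61, adjusted p = 0.047, between 0.014 and 0.27 over 7 other settings), and of the 24 fits without 1 library it was kept only in those without library 17, 24, 28, 31, 32, 33, 36 or 37. The β chain had 0.31 (SE 0.44, adjusted p = 0.61). Fcer1g, made by macrophages, rose by 1.54 and 1.67 on the log2 scale in wildtype and AhR-deficient BMDMs (adjusted p = 1.5e-10 and 1.7e-11).

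Gata2, Cpa3 and Mcpt8 did not pass for an LPS effect in either genotype. Their log2 fold changes were 0.999, 0.70 and 0.76 in wildtype (adjusted p = 0.25, 0.32 and 0.38) and 0.87, 0.58 and 0.73 in AhR-deficient BMDMs (adjusted p = 0.38, 0.41 and 0.42). All 6 values were above 0, with standard errors between 0.53 and 0.75.

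Whether LPS acted differently in the genotypes was tested by the interaction, which edgeR called for 4.30% of all genes and for 1 of the 7 markers, Hdc. The rise of Hdc was 3.79 log2 units larger in AhR-deficient BMDMs (SE 0.43, adjusted p = 1.2e-05), and lay between 3.64 and 4.30 over 8 other settings. It started lower and ended higher there. For the other 6 the interaction lay between −0.88 (Ms4a2, adjusted p = 0.69) and 0.34 (Kit, adjusted p = 0.99) and was not called.

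Further genes of these cell types were read from lists written with earlier results of these data known. Of 13 tested mast cell granule and receptor genes, 7 were called lower in AhR-deficient BMDMs without stimulation and 6 after LPS, none higher, Cpa3 and Kit included. Among them were the mast cell protease Mcpt2 (log2 fold changes −5.94 and −3.33), the cathepsin Ctsg (−3.66 and −3.80) and the vesicular amine transporter Slc18a2 (−3.71 and −3.29), which loads histamine and serotonin into granules. The serotonin-making Tph1 had 63 counts over the unstimulated wildtype libraries and none over the AhR-deficient ones, which is at least 20.1-fold lower against a floor of 3 counts over the group. After LPS Tph1 had 198 and 77 counts and was not called (log2 fold change −1.21, adjusted p = 0.27). Of the defining genes of mature connective tissue mast cells, some had few or no counts and others were measured. Mrgprb2 had no count in any library, Mcpt4 had 6 counts over each LPS group and none without stimulation, Tpsab1 had 7 counts in all, and Cma1 had a highest group mean of 0.165 ± 0.135 CPM, in LPS-stimulated wildtype (SD, n = 6). The tryptase Tpsb2 had 0.253 and 0.243 CPM in unstimulated wildtype and AhR-deficient BMDMs (log2 fold change −0.06, adjusted p = 1.0), and 0.706 and 0.804 CPM after LPS (log2 fold change 0.18, adjusted p = 0.96), with 245 and 238 counts.

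Of 15 tested basophil genes, Mcpt8 included, 7 were called lower without stimulation and 6 after LPS, none higher, with list medians of −0.48 and 0.05. The basophil protease Prss34 had 1.65 ± 0.685 and 0.465 ± 0.274 CPM in unstimulated wildtype and AhR-deficient BMDMs, and 3.57 ± 1.84 and 0.776 ± 0.1995 CPM after LPS (SD, n = 6 each). Its log2 fold changes were −1.81 (adjusted p = 0.027) and −2.20 (adjusted p = 0.0037). The steroid-making Cyp11a1 was lower by −2.91 and −2.39, and the interferon-induced Ifitm1, which other cells make too, by −8.15 and −6.39. The receptor Cd200r3 did not pass, at −0.44 and −0.35 (adjusted p = 0.70 and 0.61). Some genes of this list had a small adjusted p but less than the 2-fold change a call needs. Il3ra was higher, at 0.76 and 0.70 (adjusted p = 0.029 in both states), as was Hgf, at 0.85 and 0.58 (adjusted p = 0.0012 and 0.017). Aqp9 was lower without stimulation (−0.48, adjusted p = 0.016).

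Signalling genes downstream of FcεRI and KIT are shared with macrophages. Of 19 tested FcεRI genes, 1 was called lower without stimulation, the adaptor Lat (−2.44), and 2 after LPS, Ms4a2 and the kinase Fyn (−1.68). Of 18 tested genes of KIT signalling, 2 were called lower without stimulation, Kit itself and the cytokine signalling inhibitor Socs1 (−1.63), and after LPS Kit alone. These counts stand beside 3.57% and 6.19% of all genes called lower, and none of either list was called higher. The medians of the FcεRI list were 0.06 and −0.07, and those of the KIT list 0.09 and −0.04.

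Beside Hdc, the histamine list held 7 tested genes. Slc18a2 and the histamine receptor Hrh1 (−2.61, adjusted p = 0.0040) were called lower in unstimulated AhR-deficient BMDMs, and Slc18a2 alone after LPS. Hrh1 went from 0.222 to 2.35 CPM with LPS in AhR-deficient and from 1.37 to 1.54 CPM in wildtype BMDMs, and its interaction was 3.22 (adjusted p = 0.015). The breakdown enzyme Maoa had log2 fold changes with LPS of −2.43 in wildtype and −2.74 in AhR-deficient BMDMs, and Hrh2 of 1.57 and 2.25.

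Of 16 tested transcription factors of these lineages, Gata2 was the one called lower without stimulation (3.57% of all genes). After LPS Gata2 and Nfe2 (−2.04) were (6.19% of all genes). None of the 16 was called higher, and the list medians were 0.03 and 0.06. Gata1 and Gata3 did not pass the filter. Without stimulation Gata1 had 54 counts over wildtype and 32 over AhR-deficient libraries, and Gata3 107 and 34. After LPS these counts were 59 and 6 for Gata1, and 28 and 2 for Gata3. Of 12 tested cytokines and receptors, 1 was lower and 1 higher without stimulation, and 2 were lower and 2 higher after LPS. The shares of all genes called higher were 0.916% and 2.17%. The type 2 cytokine Il13 was called lower in both states. Without stimulation it had 133 counts over the wildtype libraries and none over the AhR-deficient ones, which is at least 42.4-fold lower against the floor of 3 counts over the group, and after LPS its log2 fold change was −5.55. The alarmin Il33 was higher (2.58 and 5.33), and its receptor Il1rl1, which mast cells carry, was called lower after LPS (−1.80, adjusted p = 0.0036), with an interaction of −1.84 (adjusted p = 0.069). Of 7 lipid mediator enzymes that mast cells share with macrophages, 3 were lower without stimulation, and 4 lower and 1 higher (Ptgs2) after LPS, among the lower ones the prostaglandin D synthase Hpgds (−5.20 and −3.53).

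**Figure D4:**
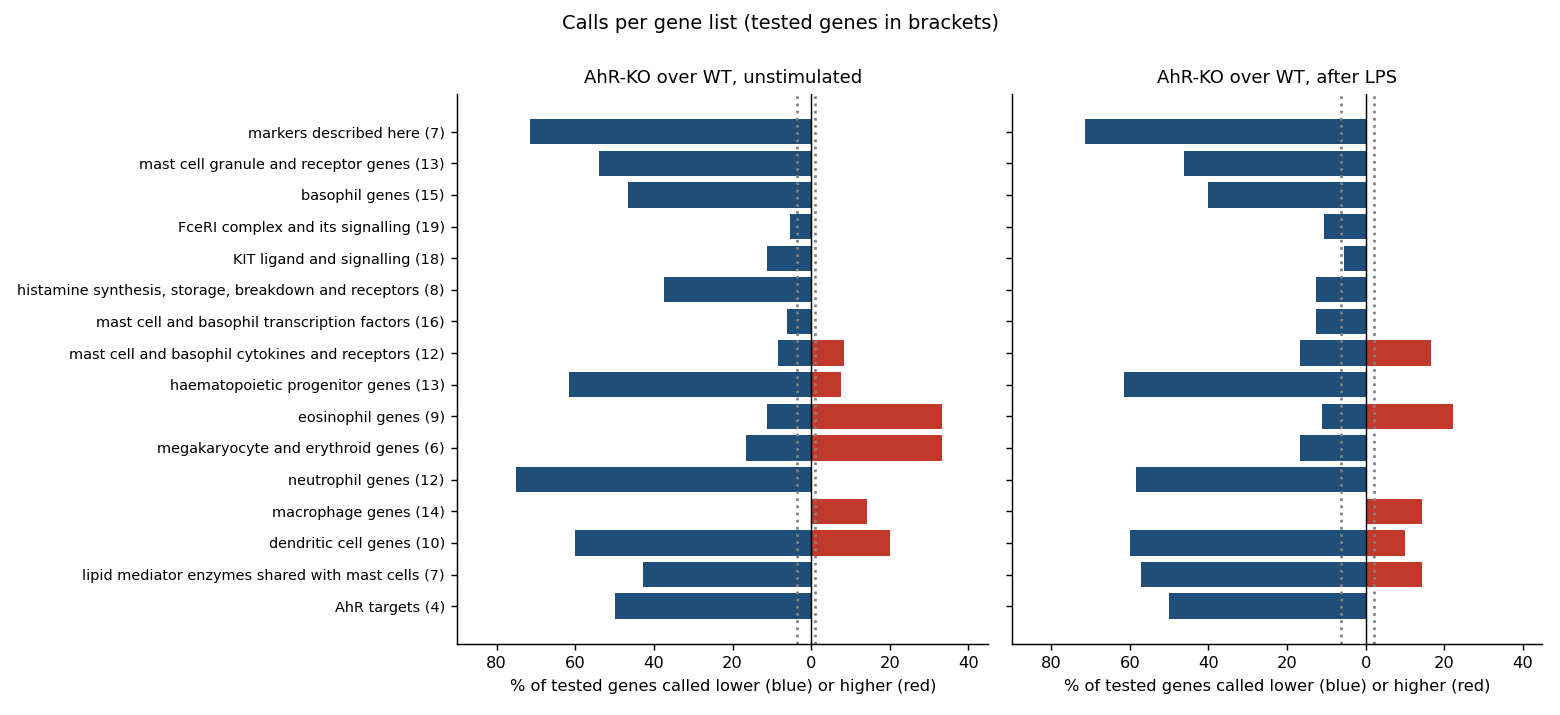
Share of tested genes called lower or higher in AhR-deficient BMDMs for the markers and for each list with at least 4 tested genes, without stimulation and after LPS. Dotted lines give the shares over all genes tested. The markers reach 5 of 7 in both states, and the neutrophil, progenitor and dendritic cell lists are also mostly lower.

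Markers of other bone marrow cells moved with genotype beside the 7. Without stimulation 3.57% of all genes were called lower and 0.916% higher, and after LPS 6.19% and 2.17%. Of 12 neutrophil genes, 9 were lower in AhR-deficient BMDMs without stimulation and 7 after LPS, and their summed level ran from 2238 to 13050 CPM in unstimulated wildtype and from 289 to 840 CPM in AhR-deficient BMDMs. After LPS it ran from 904 to 8654 and from 183 to 1051 CPM. None of the 12 was at 0 in a group. Of 13 tested progenitor genes, Kit and Gata2 included, 8 were lower in each state, and 1, Spink2 (1.69, adjusted p = 0.00084), was higher without stimulation. Their sum ran from 104 to 156 CPM in unstimulated wildtype and from 32.2 to 62.0 CPM in AhR-deficient BMDMs, and from 67.7 to 164 and 37.6 to 95.2 CPM after LPS. Cd34, which mast cell precursors and other progenitors carry, was lower by −4.35 and −2.84, while the progenitor enzyme Mpo was at or below 0.0716 CPM in every group. Of 10 tested dendritic cell genes, 6 were lower and 2 higher without stimulation, with sums of 128 to 355 CPM in wildtype and 60.6 to 140 CPM in AhR-deficient BMDMs. After LPS 6 were lower and 1 higher, with sums of 743 to 2614 and 329 to 1410 CPM.

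The remaining lists had calls in both directions or few calls. Over all genes, 0.916% were called higher without stimulation and 2.17% after LPS. Of 9 tested eosinophil genes, 3 were higher and 1 lower without stimulation, and 2 higher and 1 lower after LPS, with list medians of −0.70 and −0.88. Those higher included Ear2 and Siglecf (1.48 and 1.57 without stimulation), which alveolar-like macrophages make as well, and the one lower in both states was Ear6 (−1.17 and −1.82). The eosinophil granule gene Prg2 had −0.70 and −0.88 (adjusted p = 0.84 and 0.44). Of 6 tested megakaryocyte and erythroid genes, 2 were higher and 1 lower without stimulation, the integrin Itga2b (−3.30), and Itga2b alone was called after LPS (−2.65). The medians of this list were −0.61 and −0.76, with 7 of the 16 genes of this list at 0 in the unstimulated AhR-deficient group. Of 14 macrophage genes, 2 were higher in each state and none lower. These were Ear2 and Siglecf without stimulation, and Ear2 and Fcgr1 (1.24, adjusted p = 0.0031) after LPS. Siglecf was not called after LPS (0.71, adjusted p = 0.18). Of 12 lymphocyte genes 1 passed the filter, Klrb1c, and their sum did not exceed 2.04 CPM in a library. Klrb1c was called higher after LPS (1.95, adjusted p = 0.0086) and was not called without stimulation (0.12). The part of these other cell types in the marker differences was not tested.

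Across the 24 libraries, Pearson's r of log2(CPM + 0.5) had a median of 0.702 over the 15 pairs of markers without Hdc, from 0.373 to 0.884 (Gata2 and Cpa3). The 6 pairs with Hdc had a median of 0.369, from 0.220 (Gata2) to 0.708 (Kit). All genes are read from the same libraries, which differ in genotype, LPS and run. Once each library was taken as a deviation from its group's mean, the order turned, and the 15 pairs without Hdc had a median of 0.106, from −0.391 to 0.801, while the 6 pairs with Hdc had a median of 0.373, from −0.312 to 0.676 (Cpa3). Deviations still hold the run, and the third run was low for Cpa3, Mcpt8 and Hdc in both wildtype groups, whose part in these values was not tested. Gata2 and Cpa3 had 0.801, with Gata2 ranked 2 for Cpa3 and Cpa3 ranked 38 for Gata2. Cpa3 was ranked 3 for Hdc and Hdc 128 for Cpa3 (r = 0.676). Negative values were those of Fcer1a with Mcpt8 (−0.391), Hdc (−0.312), Cpa3 (−0.18) and Gata2 (−0.115), and of Ms4a2 with Mcpt8 (−0.352) and Kit (−0.31).

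Among 12713 other genes with a mean of at least 1 CPM, those most like Gata2 over the 24 libraries were the AhR repressor gene Ahrr (r = 0.946), Dbn1 (0.945) and Afap1l2 (0.943). Afap1l2 also led for Cpa3 (0.888), where Gata2 was next (0.884). Mcpt8 was most like Fam167a (0.881), with Gata2 in the fifth place (0.857). Kit was most like Fscn1 (0.959) and Il4i1 (0.953), Ms4a2 like Gm9027 (0.885) and Gnb4 (0.880), and Fcer1a like Cd2bp2 (0.863) and Iscu (0.859). Hdc was most like Acod1 (0.991) and Cd38 (0.990), genes that LPS induces in macrophages.

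**Figure D5:**
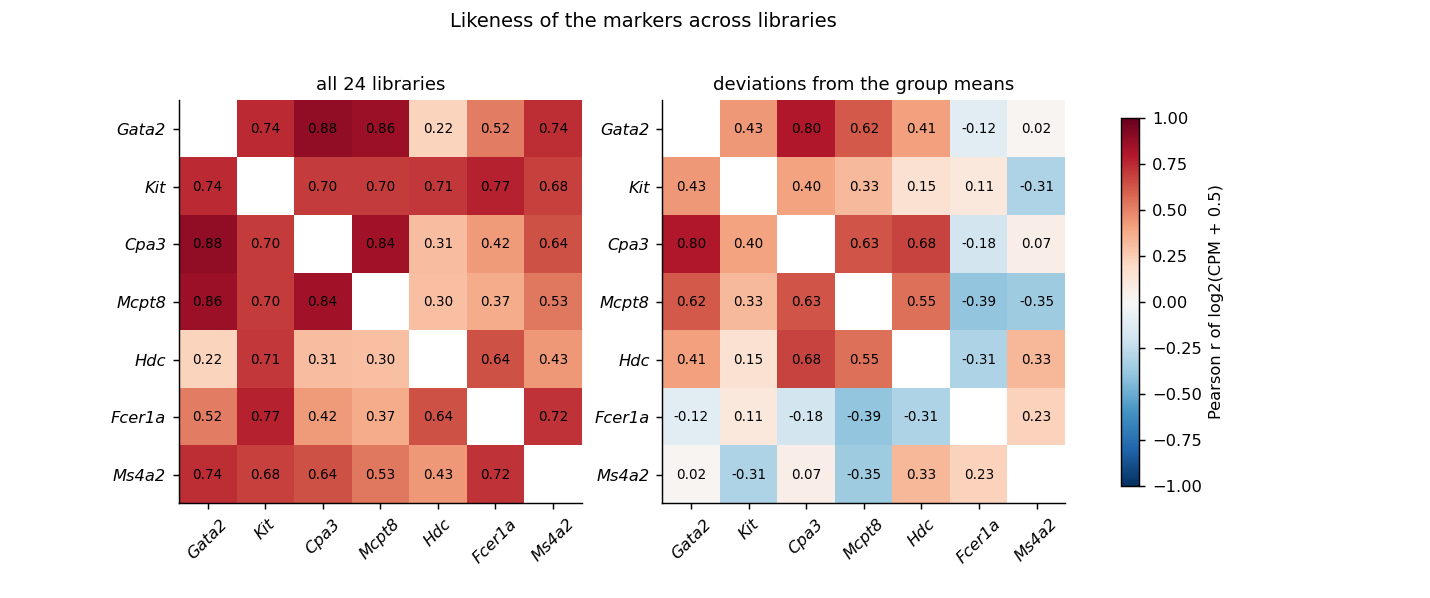
Pearson's r of log2(CPM + 0.5) between the markers over 24 libraries (left) and over the deviations of the same libraries from their group means (right). Gata2 and Cpa3 have 0.88 on the left and 0.80 on the right, whereas Hdc and Gata2 have 0.22 on the left.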

How the data were processed

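RNA of 24 BMDM libraries, 6 per group, was sequenced after poly-A selection with a directional kit. The authors used GSNAP for alignment to mm10 and featureCounts 2.0.1 to count unique alignments per Ensembl gene, and the deposited values are these raw counts with no normalization. The table held 55421 genes and 92 spike-in rows with 1 count in all, which were left out. Symbols came from the reference table of gene names (55154 genes), and no column lacked a sample. In each of the 60 pairs of libraries within a group, counts differed beyond sampling noise.

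All 24 libraries were fitted in edgeR 4.0.16 (R 4.3.3) with TMM factors, filterByExpr on group, which left 16593 genes, and quasi-likelihood tests (robust), and p-values were adjusted by Benjamini-Hochberg over these genes. The biological coefficient of variation was 49.1%. A DEG passed at an adjusted p up to 0.05 and a log2 fold change of 1 or more in either direction, with no minimum fold change for the interaction. The study used DESeq2, an alternative here. RPKM used the exon lengths of the deposited table. p-values measure the spread between these libraries, and floors cover counting error only. The fits were tested on simulated data. The alternatives were DESeq2 size factors, total library size, DESeq2 1.42.0, limma-voom (limma 3.58.1), no filter, a mean of at least 1 CPM, the libraries compared alone, runs as a factor, no minimum fold change and each library left out. Leaving out libraries 33 to 40 was chosen after the data had been seen.

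The 7 markers and 16 further lists (214 of 215 symbols of all lists matched) were chosen with earlier results of these data known. Named were the 7 markers, Ahr, Fcer1g, 11 defining genes of other lists, at most 4 genes per list and comparison (the called genes with the smallest p, or the most abundant where none was called), and the 5 genes most like each marker. Some further genes were named outside this rule to limit a statement on their list, among them Gata1, Gata3, Prtn3, Il3ra, Hgf and Aqp9. Promoter windows came from RefSeq (GRCm38.p6). Figures were drawn with matplotlib 3.10.9, and tables used Python 3.11.15, numpy 2.4.6 and pandas 2.3.3.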

Additional observations from a re-analysis of the deposited data

Results flagged for a closer look

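Among the 28 combinations of marker and group, 1 held a library far from the other 5. Cpa3 in LPS-stimulated AhR-deficient BMDMs reached 4.78 CPM in library 32, and the gap to the next library took 0.627 of the whole range of the group. About 1 in 20 groups is flagged so by chance. The LPS effect on Hdc differed between the genotypes, with an interaction of 3.79 on the log2 scale in edgeR (SE 0.43, adjusted p = 1.2e-05). All 6 AhR-deficient libraries lay below wildtype without LPS and all 6 above it after LPS. The genotype difference after LPS was not called in edgeR (log2 fold change 0.66, adjusted p = 0.16).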

How the results depend on the processing

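No paired analysis was possible because the labels give the groups no shared number and tie no library to an animal. Of 290 fold changes of the markers under other settings, 272 kept their direction and side of the threshold, 9 lost their call, 4 gained one and 5 changed sign. Of 840 fits without 1 library these numbers were 783, 32, 1 and 24. The cause of the shifts was not tested. Markers called lower without stimulation numbered 3 with limma-voom (3.68% of all genes), 6 with runs as a factor (4.25%) and 3 to 5 without 1 library (3.15% to 3.75%), against 5, with 3 when wildtype library 17 or 26 was left out. With a mean of at least 1 CPM, a filter that only 4 of the markers passed, 3 of the 4 were called lower after LPS (5.65% of all genes) and 2 higher for LPS in wildtype (12%). Calls over all genes moved to 2096 for genotype after LPS and 6305 for LPS in wildtype with no minimum fold change. For the interaction they moved to 1125 with DESeq2, 1201 with runs as a factor and 373 with libraries 17 to 32 alone, against 713.

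Sign changes were seen for values near 0. The LPS effect on Ms4a2 in AhR-deficient BMDMs was −0.17 with total library size. The interaction became 0.28 for Cpa3, 0.0399 for Mcpt8 and 0.46 for Gata2 with libraries 17 to 32 alone, and 0.54 for Gata2 with limma-voom. Without 1 library it ran from −0.55 to 0.11 for Cpa3, from −0.71 to 0.16 for Fcer1a, from −0.35 to 0.53 for Mcpt8 and from −0.42 to 0.49 for Gata2. With total library size, the median log2 fold change of all genes was −0.26 for genotype after LPS, −0.31 for LPS in wildtype, −0.52 for LPS without AhR and −0.18 for the interaction, against values between −0.05 and 0.03 with TMM factors. The genotype calls of Kit and Gata2 in both states and of Hdc without stimulation, and the LPS calls of Kit and Hdc, held under all 9 other settings and all 24 fits without 1 library. Hdc was called for genotype after LPS in none of these. Fcer1a was called for genotype after LPS with limma-voom alone (−1.45, adjusted p = 0.046), and Gata2 for LPS in AhR-deficient BMDMs with libraries 17 to 32 alone. Fcer1a had 39 to 220 counts over a group, and whether depth limited its calls was not tested. The 5 genes most like a marker changed by deviations from group means for all 7 markers.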
